A study of Homo sapiens with 21 samples.

Results

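This report follows 9 genes of zinc handling and the metallothionein family through 21 RNA-seq libraries of BT-549 cells, an established line of triple-negative breast cancer with mesenchymal features. The genes were chosen by symbol: MT1A, MT1E, MT1F, MT1G, MT1M, MT1X and MT2A, which encode metallothioneins, MTF1, which encodes metal regulatory transcription factor 1, and SLC30A1, which encodes the zinc exporter ZnT1. Each of the 9 symbols matched 1 row of the 42339 gene rows in the count table, and none of their 189 values was blank. There were 7 groups of 3 libraries, each from cells cultured in triplicate. BT-549 carries wild-type BRCA1 per the labels, and this holds for every group. The 2D cells were BT-549 cells growing attached in RPMI with 10% FBS. The 3D cells were mammospheres, floating spheres grown in the serum-free medium MammoCult and taken at passage 6. The 3D cells + GO-203 were the same mammospheres treated with 0.75 µmol/L GO-203, a peptide inhibitor of the MUC1-C subunit. The tet-MUC1shRNA cells (passage 6) and tet-MYCshRNA cells (passage 8) were mammospheres carrying a doxycycline-inducible short hairpin RNA against MUC1 or MYC. They received vehicle (0.1% DMSO) or 500 ng/ml doxycycline (DOX). Each hairpin is 1 sequence, and no group with DOX and a control hairpin was analysed here, so the effects of DOX and of silencing cannot be told apart. Attached growth and serum medium also change together with sphere growth and MammoCult. The labels name cell cultures and no separate experiments, so p-values measure the spread between cultures, which may be partly technical.

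Metallothioneins are small proteins rich in cysteine that bind zinc, copper and cadmium and buffer the free zinc of the cell. Their genes lie side by side and carry short metal response elements upstream of their starts. When free zinc rises, MTF1 binds it through its zinc fingers, moves onto these elements and raises transcription of metallothionein genes and of SLC30A1, whose product moves zinc out of the cell. Metallothionein transcripts are also raised by glucocorticoids, oxidative stress and low oxygen, and they vary widely between breast cancers.

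The upstream sequence is shown for 3 genes, since it holds the letters through which MTF1 is known to act: MT2A and MT1X, which buffer zinc, and SLC30A1, which exports it. The windows are the 250 bases before the start in the RefSeq promoter table (GRCh38.p14), which matched 4 of the 9 genes, and are written 5′ to 3′ on the strand of the gene. Capitals mark matches on either strand to TGCACNC or TGCGCNC, the core letters of the metal response element. The 2 patterns differ at the fourth letter and cannot match the same bases on the same strand. The MT2A window is chr16:56608334-56608583 on the plus strand, the MT1X window chr16:56682220-56682469 on the plus strand, and the SLC30A1 window chr1:211579162-211579411 on the minus strand.
MT2A: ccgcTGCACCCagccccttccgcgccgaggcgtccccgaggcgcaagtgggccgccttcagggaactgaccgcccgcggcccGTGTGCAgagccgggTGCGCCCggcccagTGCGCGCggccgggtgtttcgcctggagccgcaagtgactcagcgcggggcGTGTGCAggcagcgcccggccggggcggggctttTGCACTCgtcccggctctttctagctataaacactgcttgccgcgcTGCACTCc
MT1X: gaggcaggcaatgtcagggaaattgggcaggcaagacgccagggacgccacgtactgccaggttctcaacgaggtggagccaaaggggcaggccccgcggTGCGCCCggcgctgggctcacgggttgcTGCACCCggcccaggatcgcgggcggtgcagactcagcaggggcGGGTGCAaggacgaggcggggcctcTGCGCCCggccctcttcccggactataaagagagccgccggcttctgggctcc
SLC30A1: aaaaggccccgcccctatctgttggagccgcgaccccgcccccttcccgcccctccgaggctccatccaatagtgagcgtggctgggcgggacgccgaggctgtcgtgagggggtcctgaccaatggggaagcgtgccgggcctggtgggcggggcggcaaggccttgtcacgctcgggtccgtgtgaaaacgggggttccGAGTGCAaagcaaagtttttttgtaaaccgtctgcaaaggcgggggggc

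MT2A had 7 matches, and 7 or more were found in 0.03% of the 35116 promoter windows of this length. MT1X had 4 matches, a number reached by 0.37% of windows. SLC30A1 had 1 match, 49 bases before its start, and at least 1 match was found in 24.83% of windows. The fourth matched gene, MTF1, had none. A match is a string of letters in this window and says nothing about binding in these cells.

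Across the series, library totals ran from 38026597 to 99751717 counts. MUC1, measured as CPM (counts scaled to a common library size, with edgeR's TMM factors over the 21 libraries), stood at 82.5 to 101 CPM in the tet-MUC1shRNA vehicle libraries and at 20.2 to 23.1 CPM with DOX. MYC fell from between 382 and 446 CPM to between 239 and 304 CPM in the tet-MYCshRNA libraries, and MUC1 rose there by 1.25 on the log2 scale. Although the labels give the tissue as epithelial, EPCAM, CDH1, KRT8, KRT18 and KRT19 did not exceed 1.55 CPM in any library, while the mesenchymal marker VIM ran from 1067 to 2507 CPM. Of 5 markers of other cell types (PTPRC, CD3E, PECAM1, LYZ, ALB), the summed level was 1.42 to 1.65 CPM in 2D cells and 5.95 to 7.11 CPM in 3D cells. PECAM1, an endothelial adhesion molecule, rose from 0.0118 to 6.62 CPM on average, while PTPRC, a leukocyte marker, fell from 1.28 to 0.0621 CPM (log2 fold change -4.30). CD3E, LYZ and ALB did not exceed 0.353 CPM in any library. In 3D cells the mesenchymal genes SPARC (log2 fold change -3.97) and CDH2 (-3.11) fell, while FN1 (3.89), ZEB1 (1.14) and VIM (0.12) rose. Of the 2 epithelial markers tested there, CDH1 fell from 1.45 to 0 CPM and KRT8 rose from 0.179 to 0.496 CPM. On MUC1 silencing CDH2 rose by 2.67 and VIM by 0.18, while ZEB1 (-1.41), SPARC (-0.90) and FN1 (-0.51) fell. The 3 tested epithelial markers rose there at these low levels (KRT8 4.84, KRT18 4.48, CDH1 3.26). On MYC silencing FN1 (1.25), SPARC (0.82) and PECAM1 (0.45) rose. Of the 5 mesenchymal markers there, 4 rose and 1, VIM, fell (-0.18). With GO-203 SPARC rose by 0.69. Apart from SPARC, CDH2, FN1 and PECAM1 in 3D cells and CDH2 on MUC1 silencing, these marker changes are named after their values were seen. The part of the markers in the results on zinc genes was not tested. In bulk RNA, fewer cells with a transcript and less transcript per cell cannot be told apart. Library 1 of the tet-MYCshRNA cells with DOX stood apart from its replicates (chi-square divided by degrees of freedom, 45.6 and 31.5 against them), and results that rest on it are given with and without it.

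The metallothionein genes lie in a cluster on chromosome 16 (GRCh38, GENCODE 44). In order they are MT2A (16, 56608584 to 56609497), MT1E (56625475 to 56627112), MT1M (56632659 to 56633981), MT1A (56638666 to 56640087), MT1F (56657731 to 56660698), MT1G (56666730 to 56668065, the only member of the cluster on the minus strand among these 7) and MT1X (56682470 to 56684196). MTF1 (37809574 to 37859592) and SLC30A1 (211571568 to 211579161) both lie on the minus strand of chromosome 1. The metallothionein genes resemble each other, and 50.99% of all 50-base windows of MT1X, 19.94% of MT1G, 14.61% of MT1M, 11.08% of MT2A and 10.33% of MT1E occur at another gene. At 100 bases the share was 21.97% for MT1X, all of it with the overlapping gene model ENSG00000259827, and 0% for each of the other 8 genes. How reads mapping to several places were counted is not given in the sources used here, so the split of counts among MT1X, its overlapping model and its pseudogene is uncertain.

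Compared per length, as CPM per kb of the canonical transcript, MT2A was the highest of the 9 genes in each group. Its group means ran from 338 to 4925 CPM per kb, against 29.1 to 2263 for MT1X, 13.3 to 649.5 for MT1E and 0.432 to 234.6 for MT1M. MT1F was low throughout, at 0.576 to 20.8 CPM per kb. MTF1 and SLC30A1 moved little by comparison, from 6.15 to 13.1 and from 7.65 to 18.7 CPM per kb. MT1A was sparse, with 29 or fewer counts in 20 libraries and 507 counts in library 2 of the tet-MYCshRNA cells with vehicle. MT1G was at 0 counts in 10 of the 21 libraries and did not exceed 6 counts, too few to be tested in any comparison. In the 2D libraries, where MT1G had 0 counts, a count of 0 allows up to 0.0529 to 0.0669 CPM (3 counts, counting error only). Most low counts in the table are even, and if both reads of a pair were counted singly, this limit would be 2 times as high.

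**Figure D1:**
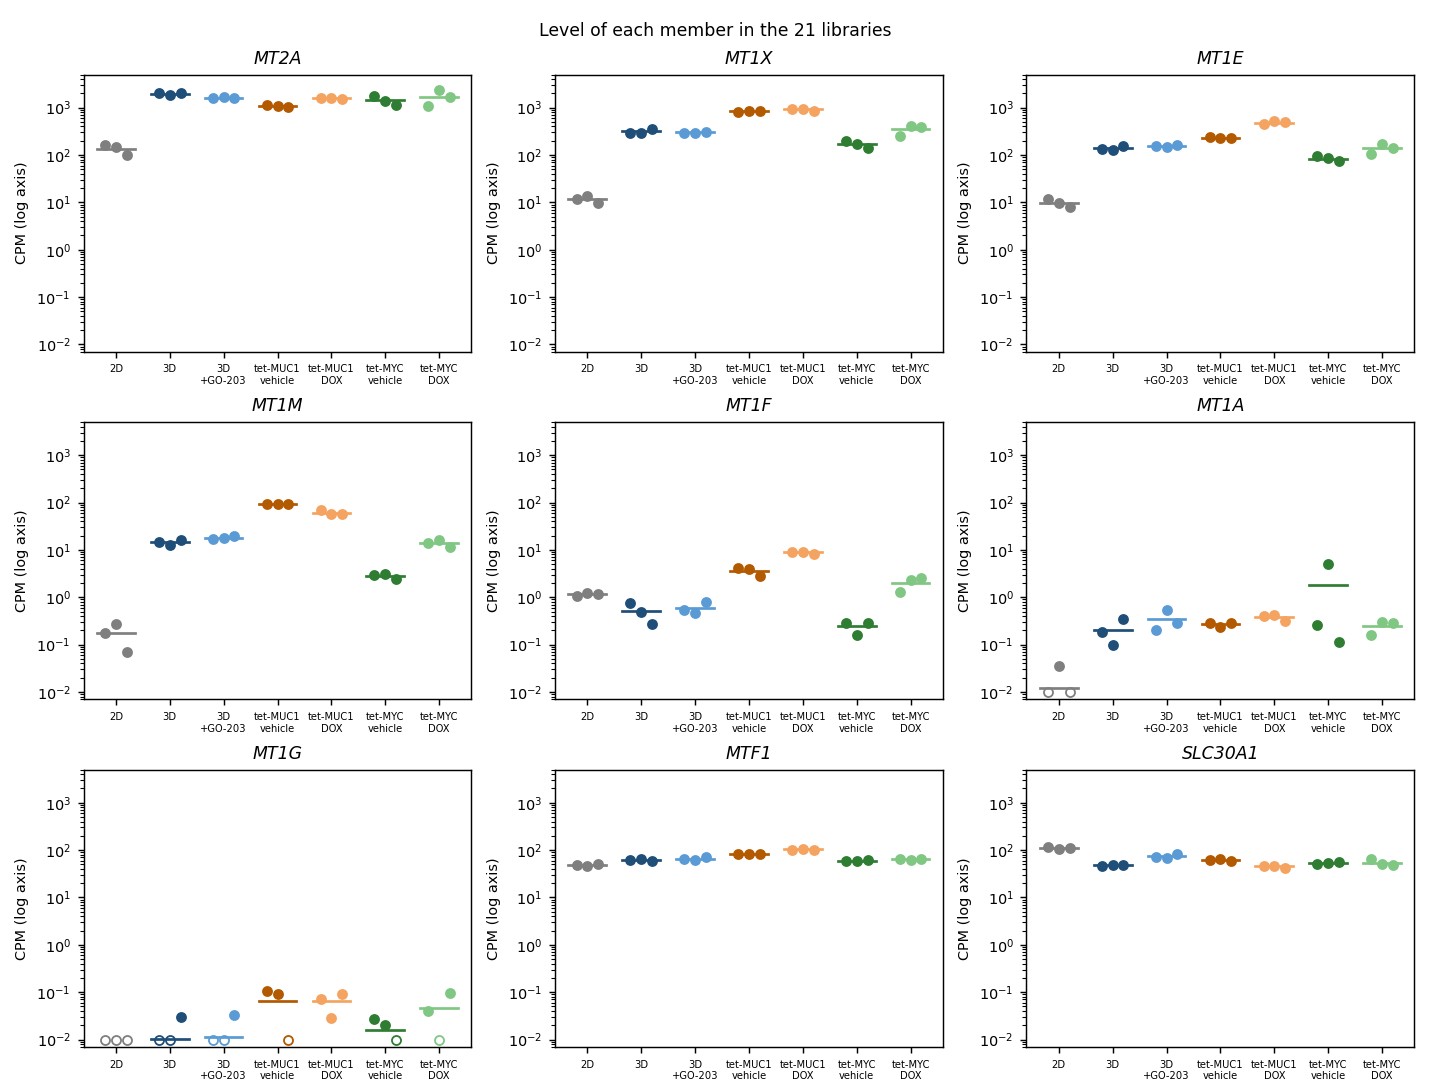
Level of each of the 9 genes in each of the 21 libraries (CPM, log axis), by group, with lines at group means and open circles at 0.01 for libraries with 0 counts. MT2A, MT1X, MT1E and MT1M are lowest in 2D cells, SLC30A1 is highest there, and the 507-count MT1A library stands alone.

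The groups were put in order of level for each gene, and each neighbouring pair was tested in 1 fit over the 21 libraries with edgeR's quasi-likelihood test. Of 48 steps over the 8 tested genes, 26 passed an adjusted p below 0.1, and across all genes the share passing for these pairs of groups ran from 17.2% to 65.7%. MT2A was lowest in 2D cells, then in tet-MUC1shRNA cells with vehicle and tet-MYCshRNA cells with vehicle. The next 4 steps for MT2A, up to 3D cells, did not pass, but the ends of this run, tet-MYCshRNA cells with vehicle and 3D cells, differed by 0.50 on the log2 scale (adjusted p = 0.02046). MT1X, MT1E and MT1M shared a low end of 2D cells followed by tet-MYCshRNA cells with vehicle, and each was highest in the tet-MUC1shRNA cells. For these 3 genes the 3D cells, the 3D cells + GO-203 and the tet-MYCshRNA cells with DOX came next, with no step between neighbours passing. The ends of this run did differ for MT1M, which was higher in 3D cells + GO-203 than in tet-MYCshRNA cells with DOX by 0.39 (adjusted p = 0.007471, log2 scale). MT1F had another order, lowest in tet-MYCshRNA cells with vehicle and with 2D cells above 3D cells. MTF1 was lowest in 2D cells and highest in tet-MUC1shRNA cells with DOX. SLC30A1 was highest in 2D cells, followed by the 3D cells + GO-203 and the tet-MUC1shRNA cells with vehicle, and the 3 steps below the tet-MYCshRNA cells with DOX did not pass. The ends of that run, tet-MUC1shRNA cells with DOX and tet-MYCshRNA cells with DOX, differed by 0.29 for SLC30A1 (adjusted p = 0.007098).

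The first comparison asks how these genes differ between attached cells and spheres. MT2A, MT1X, MT1E and MT1M were much higher in 3D cells, from 14.7-fold for MT1E to 88.0-fold for MT1M, while MT1F and the zinc exporter SLC30A1 were lower and MTF1 was only slightly higher. Of the 7 genes tested, 5 rose and 2 fell, against 32% of all 19190 genes that rose and 31.7% that fell (63.7% called in all). In each of the 7 genes the 2D and 3D libraries did not overlap, which held for 64.1% of all genes. A log2 fold change above 1.5 was passed by 4 genes, MT1M, MT1X, MT2A and MT1E, against 6.9% of all genes. The median log2 fold change was 3.88 over the 7 genes and -0.007 over all genes tested.

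MT2A, the most abundant metallothionein, was at 159, 147 and 101 CPM in the 2D libraries and at 2022, 1894 and 2008 CPM in the 3D libraries. The groups were far apart, with the lowest 3D library well above the highest 2D library. The log2 fold change was 3.92 (SE 0.13, 15.1-fold, adjusted p = 1.552e-13, edgeR's quasi-likelihood test, n = 3 per group). MT1X rose from 11.9, 13.5 and 9.86 CPM to 296, 298.5 and 351 CPM, a log2 fold change of 4.80 (SE 0.11, adjusted p = 1.225e-15). MT1E followed with 11.7, 9.91 and 8.12 CPM in 2D cells and 135, 129 and 155 CPM in 3D cells (log2 fold change 3.88, SE 0.11, adjusted p = 3.944e-14). MT1X and MT1E, widely expressed metallothioneins, thus rose with MT2A, by more than the spread within each group.

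MT1M, a metallothionein of narrower expression, was close to absent in 2D cells, with 8, 15 and 4 counts. These counts correspond to 0.179, 0.267 and 0.0706 CPM. In 3D cells it reached 14.5, 13.0 and 16.5 CPM, a log2 fold change of 6.46 (SE 0.24, adjusted p = 7.562e-13). The size of this fold rests on the few counts in 2D cells, and MT1M reached the count filter mainly through the 3D libraries. MT1F went the other way, from 1.07, 1.25 and 1.20 CPM to 0.7516, 0.5002 and 0.2712 CPM (log2 fold change -1.18, SE 0.35, adjusted p = 0.0078). MT1F is the member whose direction turns with the sphere control used: with the tet-MUC1shRNA vehicle spheres in place of the 3D cells, it was 1.64 higher on the log2 scale than in 2D cells (adjusted p = 2.053e-06). MT1A had 0, 2 and 0 counts in 2D cells and 9, 5 and 23 counts in 3D cells, and had too few counts to be tested in this fit. In the fit over 21 libraries it was 3.93 higher on the log2 scale (SE 1.52, adjusted p = 0.03186). MT1G had 0, 0 and 0 counts against 0, 0 and 2.

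The size of the metallothionein changes also depended on the sphere control, while their direction and call did not for MT2A, MT1X, MT1E and MT1M. With the tet-MUC1shRNA vehicle cells as the spheres the log2 fold change was 9.11 for MT1M, 6.19 for MT1X, 4.60 for MT1E and 3.04 for MT2A. With the tet-MYCshRNA vehicle cells it was 4.05 for MT1M, 3.87 for MT1X and 3.12 for MT1E, and MT1F was at -2.26.

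SLC30A1, the plasma membrane exporter that is itself a target of MTF1, fell from 118, 103 and 108 CPM to 47.1, 49.4 and 49.0 CPM. The log2 fold change was -1.12 (SE 0.07, 0.459-fold, adjusted p = 3.855e-10), opposite in sign to that of MT2A, MT1X, MT1E and MT1M and the same in sign as that of MT1F. MTF1 itself stood at 48.8, 47.0 and 50.5 CPM in 2D cells and at 61.6, 63.6 and 60.1 CPM in 3D cells. Its rise of 0.40 (SE 0.06, adjusted p = 2.84e-05) was small but larger than the spread between libraries. Short coding transcripts other than metallothioneins (182 genes under 600 bases) had a median log2 fold change of 0.22 in this comparison, against 0.029 for all coding genes, and metallothionein transcripts are also short. The part of transcript length in these values was not tested.

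**Figure D2:**
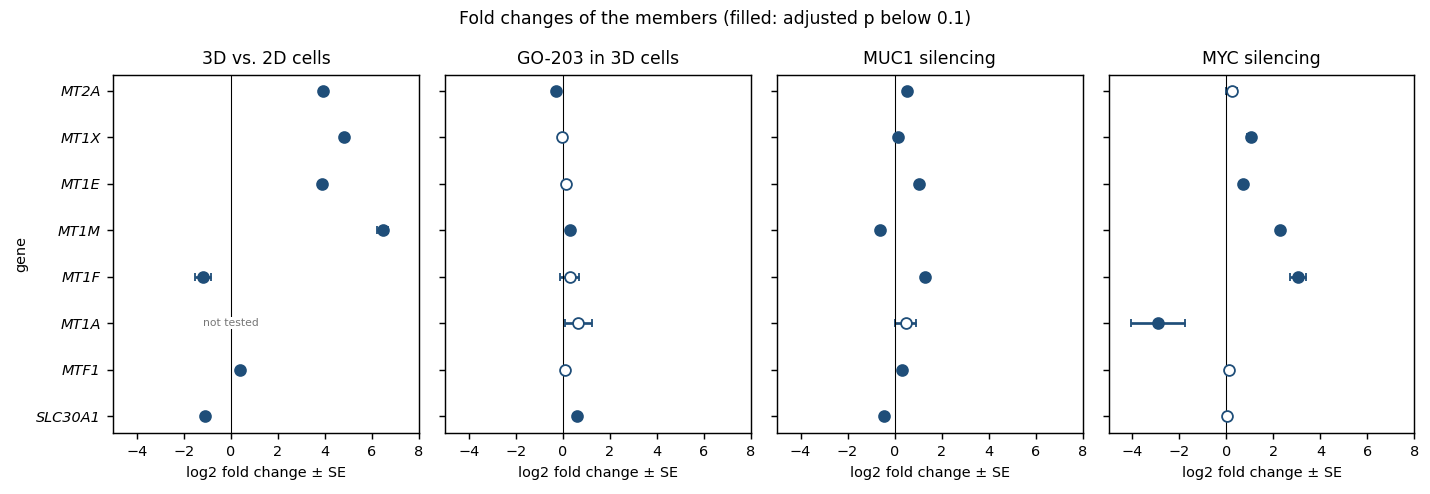
Log2 fold change of the tested genes in the 4 comparisons, with bars of 1 SE and filled points for an adjusted p below 0.1. MT1M, MT1X, MT2A and MT1E lie between 3.88 and 6.46 in 3D vs. 2D cells, GO-203 effects stay within 1 log2 unit of 0, and MT1M and SLC30A1 are below 0 on MUC1 silencing.

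The second comparison asks what GO-203 did to the same genes in 3D cells. It uses the same 3 libraries of untreated 3D cells as the comparison above, so the 2 sets of values are not independent. SLC30A1 and MT1M were higher and MT2A was lower with GO-203, all by small amounts. Of 8 genes tested, 2 rose and 1 fell, where 11.1% of all 18488 genes rose, 12.9% fell and 24.1% were called. For these 3 genes the libraries of both groups did not overlap, which held for 34% of all genes. The median log2 fold change was 0.23 over the 8 genes and 0.015 over all genes.

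SLC30A1 rose from 47.1, 49.4 and 49.0 CPM to 72.6, 68.0 and 80.9 CPM, a log2 fold change of 0.62 (SE 0.06, 1.54-fold, adjusted p = 2.544e-07). All 3 treated libraries lay between the 3D and the 2D cells in level. MT2A fell from 2022, 1894 and 2008 CPM to 1588, 1667 and 1593 CPM (log2 fold change -0.27, SE 0.04, adjusted p = 0.0001031). MT1M went from 14.5, 13.0 and 16.5 CPM to 17.2, 17.7 and 19.3 CPM (log2 fold change 0.32, SE 0.09, adjusted p = 0.01785). The last 2 calls depend on how the spread was estimated, since in the fit over all 21 libraries SLC30A1 alone passed, with adjusted p = 0.2725 for MT2A and 0.1284 for MT1M. Without 3D library 2 the value for MT1M was 0.24 with adjusted p = 0.1051. Short coding transcripts other than metallothioneins also went down in this comparison (184 genes, median log2 fold change -0.17, 76 lower and 9 higher, against a median of -0.011 for all coding genes), and their part in the fall of MT2A was not tested.

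MT1E was at 135, 129 and 155 CPM without and at 152, 150 and 160 CPM with GO-203, and just missed the threshold (log2 fold change 0.16, SE 0.07, adjusted p = 0.1005). It passed in 5 of 16 alternatives. These were without 3D library 3 (0.23, adjusted p = 0.01517), with DESeq2 (adjusted p = 0.09831) and with the replicate number as a block (0.03191). The other passes were scaled by library size alone (0.07361) and with at least 10 counts in every library (0.07875). MT1X, at 295, 295 and 310 CPM with GO-203, had a log2 fold change of -0.05 and overlapped with the untreated cells. MTF1, at 65.3, 61.0 and 70.2 CPM with GO-203, had a log2 fold change of 0.10 and also overlapped. MT1F (0.530, 0.461 and 0.813 CPM with GO-203) and MT1A (9, 21 and 17 counts) had too few counts for changes of this size to be detectable.

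The third comparison gives the effect of silencing MUC1 in mammospheres. MT1F and MT1E rose most, MT2A and MTF1 rose by less, and MT1M and SLC30A1 fell. Of 8 genes tested, 5 rose and 2 fell, where 30.7% of all 19220 genes rose, 31.6% fell and 62.2% were called. Vehicle and DOX libraries did not overlap for 7 of the 8 genes, against 61.5% of all genes. The median log2 fold change was 0.39 over the 8 genes and 0.024 over all genes.

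MT1E rose from 239, 232 and 226 CPM to 452, 510.5 and 491 CPM, a log2 fold change of 1.05 (SE 0.05, 2.07-fold, adjusted p = 1.529e-13). MT1F, of much lower level, rose from 4.07, 3.87 and 2.81 CPM to 9.10, 9.01 and 8.38 CPM (log2 fold change 1.30, SE 0.13, 2.47-fold, adjusted p = 3.069e-08). MT2A rose from 1116, 1080 and 1054 CPM to 1617, 1597 and 1532 CPM (log2 fold change 0.54, SE 0.04, adjusted p = 1.453e-10). In all 3 genes each DOX library lay above each vehicle library. MTF1 also rose, from 81.7, 84.5 and 83.2 CPM to 102.5, 108 and 101 CPM (log2 fold change 0.31, SE 0.05, adjusted p = 7.088e-06).

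MT1M fell from 95.1, 93.8 and 91.2 CPM to 71.1, 56.3 and 56.1 CPM, the only one of the 6 tested metallothioneins among the 9 genes to fall (log2 fold change -0.62, SE 0.07, 0.650-fold, adjusted p = 6.284e-08). SLC30A1 fell from 62.0, 63.8 and 59.4 CPM to 47.1, 45.9 and 42.3 CPM (log2 fold change -0.46, SE 0.05, 0.726-fold, adjusted p = 1.785e-07). Short coding transcripts had a median of -0.27 here (194 genes, 106 lower and 41 higher), against -0.035 for all coding genes, and their part in these values was not tested. MT1X is the weakest of the calls. It was at 808, 854.5 and 834 CPM with vehicle and at 957, 956 and 830 CPM with DOX, so that the groups overlapped, with a log2 fold change of 0.12 (SE 0.04, adjusted p = 0.02005). The call was lost without DOX library 1 (adjusted p = 0.1002), without DOX library 2 (0.1001) and in the fit over 21 libraries (0.5143). MT1A had 11, 10 and 15 counts with vehicle and 22, 29 and 14 with DOX, and did not pass. MT1G had 4, 4 and 0 counts against 4, 2 and 4.

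The fourth comparison gives the effect of silencing MYC. MT1F and MT1M rose most and MT1X and MT1E rose by less, while MT2A, MTF1 and SLC30A1 did not pass the test. Of 8 genes tested, 4 rose and 1 fell, where 30.3% of all 19951 genes rose, 28.1% fell and 58.5% were called. A log2 fold change above 1.5 was passed by MT1F and MT1M, against 7.06% of all genes. For 5 of the 8 genes the groups did not overlap, which held for 59.2% of all genes. The median log2 fold change was 0.47 over the 8 genes and 0.009 over all genes.

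MT1M rose from 2.89, 3.12 and 2.44 CPM to 14.0, 16.3 and 11.6 CPM, a log2 fold change of 2.29 (SE 0.16, 4.90-fold, adjusted p = 1.022e-06). MT1F rose from 0.284, 0.160 and 0.291 CPM to 1.27, 2.31 and 2.52 CPM (log2 fold change 3.06, SE 0.35, 8.34-fold, adjusted p = 3.798e-05). MT1F with DOX stood between the 2D cells and the tet-MUC1shRNA cells with vehicle in level. MT1X rose from 196, 170 and 140 CPM to 256, 405 and 396 CPM (log2 fold change 1.04, SE 0.16, 2.06-fold, adjusted p = 0.0002435). MT1E rose from 93.9, 84.6 and 74.3 CPM to 107, 175 and 140 CPM (log2 fold change 0.72, SE 0.14, 1.65-fold, adjusted p = 0.001696). For the last 2 genes, DOX library 1 was the lowest of the DOX group. Short coding transcripts had a median of -0.43 here (189 genes), against 0.052 for all coding genes, and their part in these values was not tested.

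MT2A was at 1758, 1408 and 1147 CPM with vehicle and at 1067, 2375 and 1658 CPM with DOX. The groups overlapped fully, since DOX library 1 lay below all vehicle libraries (log2 fold change 0.22, SE 0.23, adjusted p = 0.4522). This result depends on single libraries and on the filter: without DOX library 1 the value was 0.46 with adjusted p = 0.02962, without DOX library 2 it was -0.10, and with all 6 libraries and no low-count filter it was 0.19 with adjusted p = 0.01148. SLC30A1 showed the same split of the DOX group in the other direction, with 64.0 CPM in library 1 against 50.9 and 48.6 CPM, and 51.4, 52.5 and 55.2 CPM with vehicle (log2 fold change 0.03, adjusted p = 0.86). MTF1, at 58.1, 57.5 and 60.5 CPM with vehicle and 64.4, 62.3 and 66.3 CPM with DOX, had no overlap but did not pass (log2 fold change 0.12, adjusted p = 0.1768). MT1A fell by 2.90 on the log2 scale (SE 1.15, adjusted p = 0.05621), from 19, 507 and 7 counts to 8, 17 and 18. That call rests on the 507-count library, without which the value was 0.37 with adjusted p = 0.6797, and it was also lost without DOX library 2 (adjusted p = 0.1124) or 3 (0.1314).

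The effects of the 3 interventions were then compared directly, as differences of log2 fold changes over 12 libraries with edgeR's quasi-likelihood test. Between MUC1 and MYC silencing, 2 of 8 genes had a higher and 4 a lower effect with MUC1 silencing, where 26% of all 21585 genes were higher, 26.9% lower and 52.9% called. MT1M had the clearest difference, falling on MUC1 silencing and rising on MYC silencing (difference -2.92, SE 0.17, adjusted p = 1.466e-10). MT1F rose in both lines but by less on MUC1 silencing (difference -1.80, SE 0.35, adjusted p = 0.0003434). MT1X also rose by less there (difference -0.93, SE 0.18, adjusted p = 0.0002588). SLC30A1 had a lower effect on MUC1 silencing (difference -0.50, SE 0.13, adjusted p = 0.003531). The differences of MT1E (0.32, adjusted p = 0.1306) and MT2A (0.30, adjusted p = 0.3713) did not pass. Both depend on the processing. Scaled by library size alone they were 0.52 (adjusted p = 0.009336) and 0.51 (adjusted p = 0.09573), and with no low-count filter 0.38 (adjusted p = 0.0002722) and 0.37 (adjusted p = 2.359e-05). MT1E also passed with RLE size factors (0.33, adjusted p = 0.09868) and with at least 10 counts in every library (0.39, adjusted p = 0.0497). Without tet-MYCshRNA DOX library 2 they were 0.49 (adjusted p = 0.002134) and 0.61 (adjusted p = 0.008509), and without vehicle library 3 MT1E was 0.39 (adjusted p = 0.07446). The MTF1 difference of 0.18 (SE 0.08, adjusted p = 0.06991) lost its call when most of the single libraries were left out (adjusted p 0.1003 to 0.1912). The MT1A difference of 3.35 (adjusted p = 0.05314) again rests on the 507-count library and was 0.06 without it. The lines differ in passage as well as in hairpin.

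GO-203 inhibits the MUC1-C protein, and its effects in 3D cells were set against those of MUC1 silencing. Of 8 genes, 2 had a higher and 5 a lower effect with GO-203, where 24.1% of all 20829 genes were higher, 20.8% lower and 44.9% called. MT2A fell with GO-203 and rose on MUC1 silencing (difference -0.81, adjusted p = 1.273e-11), while SLC30A1 rose with GO-203 and fell on silencing (difference 1.08, adjusted p = 9.815e-11). MT1M likewise rose with one and fell with the other (difference 0.93, adjusted p = 2.621e-07). MT1E rose on silencing and did not pass with GO-203, a difference of -0.90 (adjusted p = 1.904e-09). The remaining 3 calls were smaller or closer to the threshold, at -0.95 for MT1F (adjusted p = 0.03679), -0.21 for MTF1 (adjusted p = 0.0359) and -0.18 for MT1X (adjusted p = 0.07232). Without 3D library 1 MT1F was -0.56 (adjusted p = 0.2647), and without GO-203 library 2 MTF1 was -0.16 (adjusted p = 0.1098). MT1X lost its call without any of 7 single libraries (adjusted p 0.1187 to 0.3268). Between GO-203 and MYC silencing, 2 of 8 genes were higher and 4 lower, where 19.8% of all 21076 genes were higher, 22.8% lower and 42.5% called. The lower effects were those of MT1F (difference -2.78), MT1M (-2.01), MT1X (-1.13) and MT1E (-0.60), and SLC30A1 was higher by 0.56 (adjusted p = 0.003618). The call for MT1A (3.49, adjusted p = 0.07052) rests on the 507-count library and was 0.27 without it. MT2A (-0.53, adjusted p = 0.1232) did not pass, but passed with no low-count filter (-0.53, adjusted p = 1.741e-09) and in the fit over 21 libraries (-0.55, adjusted p = 0.07103). It also passed without tet-MYCshRNA DOX library 1 (-0.75, adjusted p = 0.0008215) or vehicle library 1 (-0.67, adjusted p = 0.05214). The untreated 3D cells and the 2 vehicle groups are separate libraries, but they did not start from the same levels.

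The sphere groups that received no silencing differed among themselves. Each of the 8 tested genes differed between the 2 vehicle groups in the fit over 21 libraries, where 56.1% of all genes did. MT1M was at 95.1, 93.8 and 91.2 CPM in the tet-MUC1shRNA line and at 2.89, 3.12 and 2.44 CPM in the tet-MYCshRNA line (log2 difference -5.07 for the MYC minus the MUC1 line, SE 0.14, adjusted p = 9.503e-21). MT1F differed by -3.93, MT1X by -2.33, MT1E by -1.49, MTF1 by -0.53 and SLC30A1 by -0.24. MT2A was higher in the tet-MYCshRNA line (0.38, adjusted p = 0.05743), and MT1A was higher by 2.73 through its 1 library. Line and passage cannot be told apart here. Against the parental 3D cells, the tet-MUC1shRNA vehicle cells were higher for MT1F (2.83), MT1M (2.65), MT1X (1.39), MT1E (0.72), MTF1 (0.41) and SLC30A1 (0.33) and lower for MT2A (-0.88), where 51.9% of all genes were called. The tet-MYCshRNA vehicle cells were lower than 3D cells for MT1M (-2.41), MT1F (-1.09), MT1X (-0.94), MT1E (-0.77) and MT2A (-0.50), where 39% of all genes were called. MT1A was higher there by 3.04 (adjusted p = 0.00356), in a group that holds the 507-count library, and MTF1 and SLC30A1 did not pass, with log2 differences of -0.12 and 0.09.

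Summed over the 7 metallothionein genes, the level was 158.5 ± 33.7 CPM in 2D cells and 2445 ± 100 CPM in 3D cells (SD, n = 3), a ratio of 15.4. It was 2089 ± 39.2 CPM with GO-203, a ratio of 0.854 to the same 3D cells. In the tet-MUC1shRNA line it went from 2245 ± 32.6 to 3051 ± 116 CPM with DOX (ratio 1.36), and in the tet-MYCshRNA line from 1696 ± 344 to 2209 ± 765 CPM (ratio 1.30). The makeup of these sums also differed between groups. MT2A took 84.0% to 86.5% of the metallothionein counts in 2D cells, 79.3% to 81.9% in 3D cells and 76.5% to 78.3% with GO-203. In the tet-MUC1shRNA line its share was 47.7% to 49.3% with vehicle and 51.0% to 52.5% with DOX, and MT1X took 35.7% to 37.8% with vehicle. In the tet-MYCshRNA line MT2A took 84.1% to 85.7% with vehicle and 73.8% to 79.9% with DOX, and the share of MT1X went from 9.55% to 10.3% up to 13.6% to 17.9%. These are shares of counts, not of transcripts, and the uncertain split of MT1X counts applies to them.

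**Figure D3:**
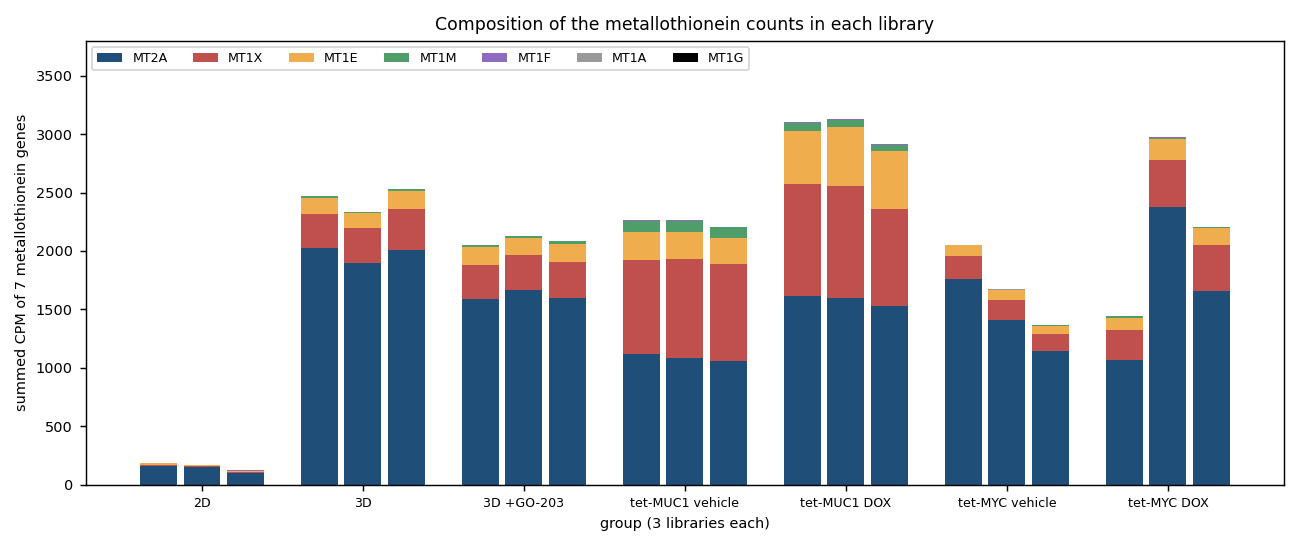
Summed CPM of the 7 metallothionein genes in each library, stacked by gene. MT2A takes 73.8% to 86.5% of these counts in the libraries outside the tet-MUC1shRNA line and 47.7% to 52.5% within it, where MT1X takes most of the rest.

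The neighbourhood of the cluster was examined to set the members beside the genes next to them. Within 250 kb on either side of the cluster, 6 flanking genes were tested in 3D vs. 2D cells, and 4 were higher and 0 lower, with values on the log2 scale between 0.09 and 1.01. These are all below the 3.88 to 6.46 of MT2A, MT1X, MT1E and MT1M, and 4 of 6 called is near the 63.7% of all genes called. BBS2, a gene of cilia that starts within the span of the cluster, is not counted among the 6 and was at 0.66. It is named after its values were seen. With GO-203, 0 of 7 flanking genes were called, with values from -0.21 to 0.28, where 24.1% of all genes were called. On MUC1 silencing 3 of 7 were higher and 2 lower (-1.26 to 1.19), and on MYC silencing 3 of 6 were higher and 3 lower (-1.04 to 0.98), where 62.2% and 58.5% of all genes were called. The flanking genes moved both ways in the 2 silencing comparisons.

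**Figure D4:**
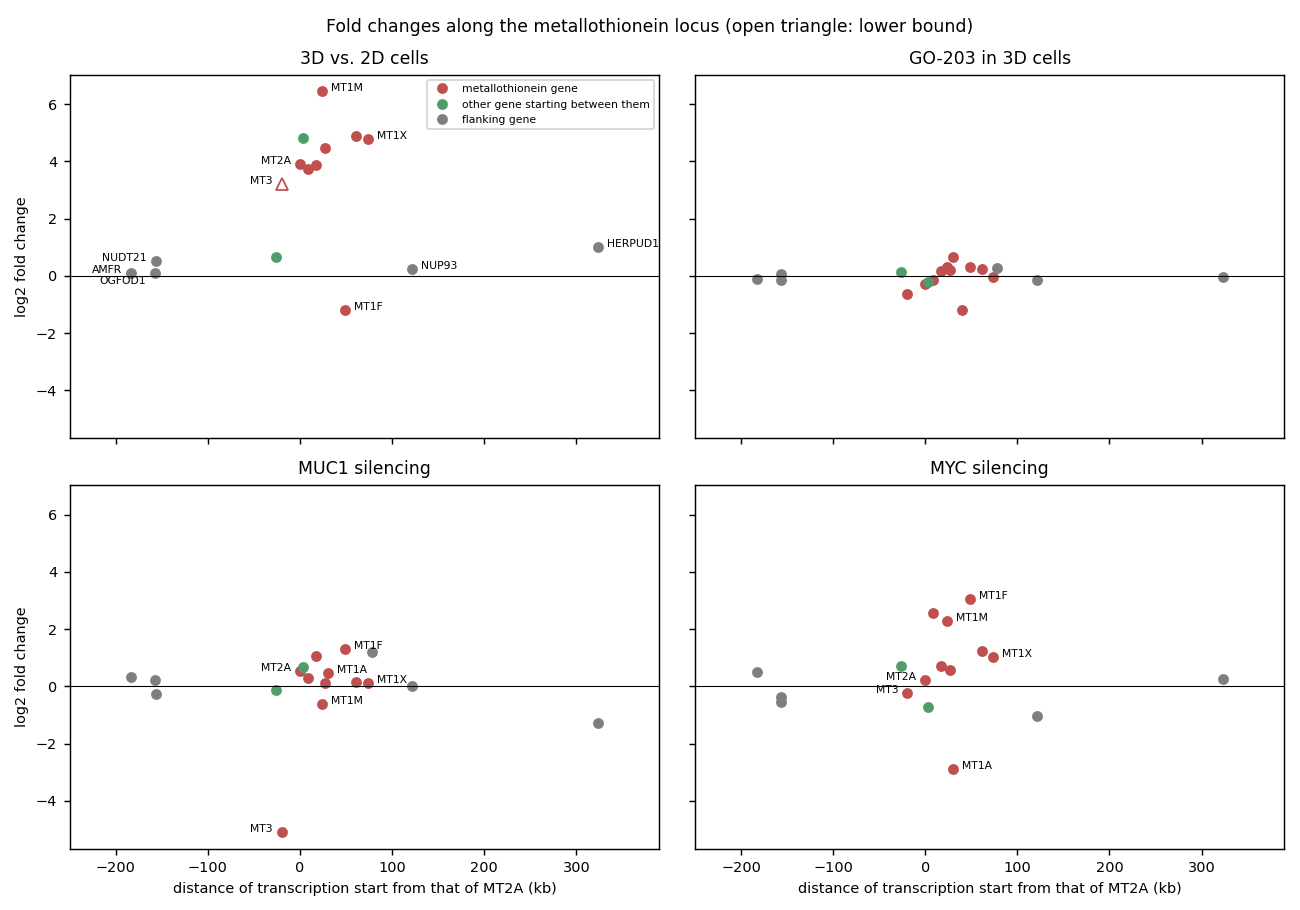
Log2 fold change of genes in and around the metallothionein cluster in the 4 comparisons, against distance of transcription start from that of MT2A (kb). Points are coloured by kind of gene and filled whatever their adjusted p. An open triangle gives the lower bound of MT3 in 3D vs. 2D cells. The high values in 3D vs. 2D cells lie in the cluster, and the flanking genes do not exceed 1.01.

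Of 14 other metallothionein genes and pseudogenes listed for this work, 10 had a row in the table and most had few counts. In 3D vs. 2D cells 5 were tested and 5 rose, where 32% of all genes rose. None of the 5 would have passed the count filter on the 2D libraries alone. Counts there were 1, 7 and 2 for MT1H and 3, 3 and 4 for MT1L. MT1JP had 9, 9 and 21 counts, MT1XP1 had 9, 23 and 8, and MT3 had none. All 5 thus passed through the 3D libraries, where they are high. This count and the median over the list are set by that filter and cannot be read against the share of all genes. MT1XP1, a pseudogene resembling MT1X, went from 0.2504 to 5.547 CPM (log2 fold change 4.50, SE 0.31), and MT1JP from 0.244 to 5.28 CPM (4.47, SE 0.32). MT1H (4.88) and MT1L (3.73) rose likewise. MT3, a metallothionein best known from the nervous system, had 0, 0 and 0 counts in 2D cells and 32, 22 and 36 counts in 3D cells, so that it was at least 9.33-fold higher with 2D cells set at 3 counts per library, a bound that would be lower if both reads of a pair were counted singly. The median over the list was 4.50, or 4.47 with MT3 at this bound. With GO-203, 0 of 6 passed edgeR's test, where 24.1% of all genes were called. On MYC silencing 3 of 5 rose, MT1H (1.23), MT1L (2.57) and MT1JP (0.57), where 30.3% of all genes rose. The groups of MT1L overlapped, with 26, 55 and 16 counts with vehicle and 8, 367 and 39 with DOX, so that 1 library carries its value (adjusted p = 0.04895). On MUC1 silencing 0 of 5 rose and 1, MT3, fell, where 30.7% of all genes rose and 31.6% fell. MT3 went from 94, 58 and 60 counts to 2, 6 and 0 (log2 fold change -5.09, SE 0.52, adjusted p = 4.022e-08), opposite to MT1E, MT1F and MT2A in the same libraries. MT1H, MT1L and MT3 are named here after their values were seen.

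Zinc exporters other than SLC30A1 were followed in a list of 10 genes. In 3D vs. 2D cells 1 of 6 tested rose and 4 fell (median log2 fold change -0.23), with GO-203 2 of 6 rose and 0 fell (0.14), on MUC1 silencing 1 of 6 rose and 4 fell (-0.25), and on MYC silencing 2 of 5 rose and 1 fell (0.15). The shares of all genes called were 63.7%, 24.1%, 62.2% and 58.5% in the same order. SLC30A4, which moves zinc into vesicles, was the exporter that rose in each of the 4 comparisons, by 1.31, 0.47, 0.63 and 1.67. On MYC silencing it went from 13.3 ± 0.382 to 42.9 ± 3.28 CPM (SE of the log2 fold change 0.09, adjusted p = 2.754e-07). SLC30A7, which loads zinc into the Golgi, moved with SLC30A1 in sign, at -0.32 in 3D cells, 0.24 with GO-203, -0.65 on MUC1 silencing and 0.39 on MYC silencing, where SLC30A1 itself did not pass. SLC30A7 is named after its values were seen.

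Zinc importers of the SLC39A family were 14, of which 11 were tested. In 3D vs. 2D cells 2 rose and 6 fell (median -0.39), with GO-203 2 rose and 2 fell (-0.10), on MUC1 silencing 2 rose and 4 fell (-0.02), and on MYC silencing 2 rose and 5 fell (-0.23). These counts lie near the shares of all genes called, 63.7%, 24.1%, 62.2% and 58.5%. SLC39A8, a zinc and manganese importer, had values of -0.997, 0.23, 1.42 and -1.04 in the 4 comparisons, each of which passed. SLC39A10, an importer of the plasma membrane, fell in all 4, by 0.39, 0.51, 0.67 and 0.82. SLC39A14, which also imports iron, rose in 3D cells by 0.68 and did not pass in the other 3. These importers are also named after their values were seen.

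**Figure D5:**
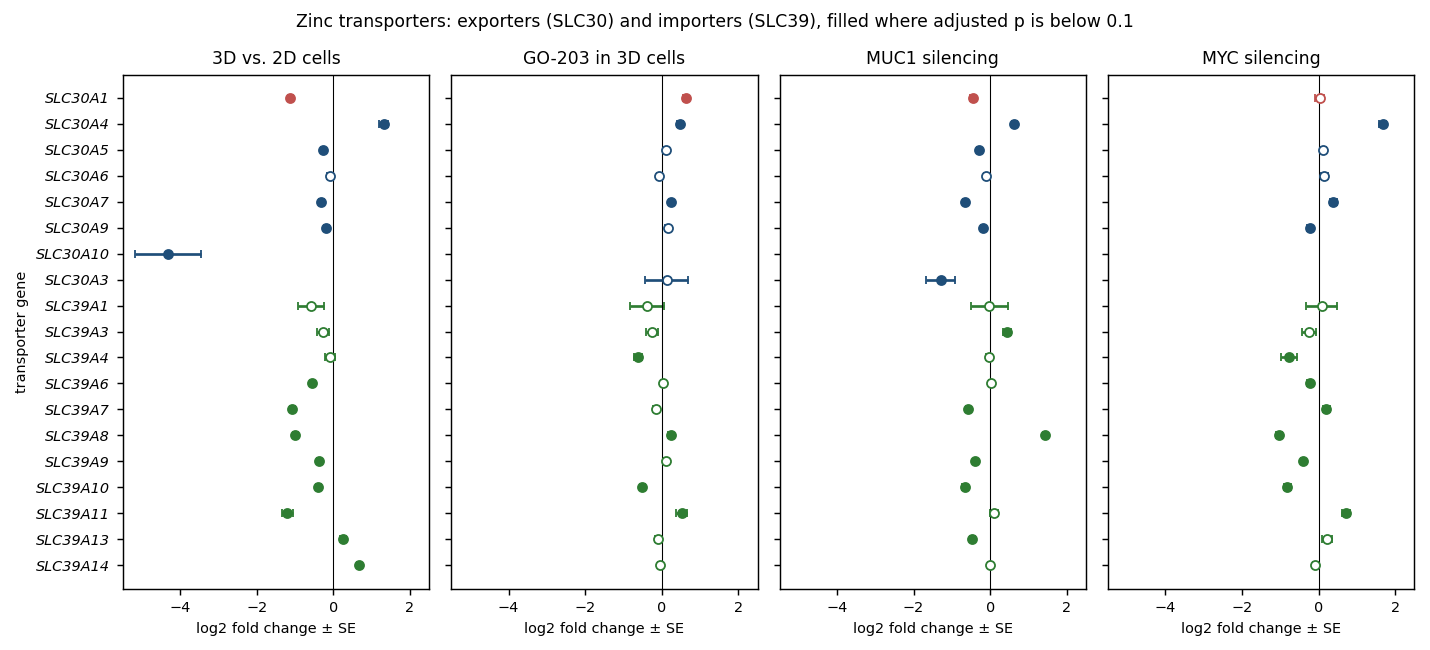
Log2 fold change of SLC30A1, the other zinc exporters and the zinc importers in the 4 comparisons, with filled points for an adjusted p below 0.1. SLC30A4 is above 0 in each comparison and SLC39A10 below 0, while SLC39A8 runs from -1.04 to 1.42.

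Since metallothioneins also bind copper, 9 genes of copper handling were followed, and 9 were tested in each comparison. In 3D vs. 2D cells 1 rose and 2 fell (median 0.11), and with GO-203 0 passed edgeR's test (0.15). On MUC1 silencing 2 rose and 4 fell (0.01), among them the copper importer SLC31A1 (-0.93) and the copper pumps ATP7A (-0.56) and ATP7B (-1.49), while the copper chaperone COX17 rose (1.14). On MYC silencing 2 rose and 0 fell (0.05), ATP7A (1.09) and the chaperone CCS (0.58). Of all genes, 63.7%, 24.1%, 62.2% and 58.5% were called in the 4 comparisons. These genes are named after their values were seen.

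The genes whose pattern over the 7 group means (log2 CPM) was closest to a member were found among genes averaging at least 100 counts, as a description. The 7 points share the parental cell line, the library preparation and the scaling. For MT2A the closest were ROBO4 (Pearson's r = 0.993), IMPA2 (0.990) and F3 (0.988). For MT1X they were FBXO42 (0.998), KLHL26 (0.986) and DNAJC6 (0.982), and for SLC30A1 GMFB (0.974), ALG14 (0.955) and POGZ (0.953). Among the members, r was 0.986 for MT1E with MT1X, 0.975 for MT1M with MT1X and 0.864 for MT2A with MT1X. SLC30A1 ran against MT2A, with r = -0.868, and MTF1 went with MT1E at 0.875. MT1F had r = -0.013 with MT2A.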

How the data were processed

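RNA was sequenced from 21 cultures of BT-549 cells after stranded library preparation from polyadenylated RNA. The authors deposited raw counts per gene and library. Per the submitters' processing notes, reads were demultiplexed with CASAVA 1.8.2 and aligned with STAR 2.7.3a. The study's methods name another version of STAR. Per those methods, alignment was to GRCh38 and counting was with featureCounts. Which gene annotation, strand option and rule for reads with several alignments were used is not given in the sources used here. Among counts of 1 to 20, 67.04% to 71.07% were even. Blank cells (4952 to 7587 genes per block of libraries) were read as 0, and none concerned the 9 genes. The deposited counts were analysed in R 4.3.3 with edgeR 4.0.16 (filterByExpr, TMM, quasi-likelihood test, Benjamini-Hochberg adjustment over all genes tested, called at an adjusted p below 0.1). Each comparison was fitted on its own 6 libraries, differences of effects on 12, and orders of level and vehicle groups on 21. Levels are CPM with TMM factors over 21 libraries, and SEs are the log2 fold change divided by the square root of F. Genes with a mean of at least 100 counts, a called change and a log2 fold change beyond 1.5 were named from the lists, at most 3 per list and comparison by size of change, and others are said to be named after their values were seen. The members and lists were chosen with earlier results of these data known. Positions are from GENCODE 44 and promoters from RefSeq. The scripts were tested on simulated counts. Alternatives were DESeq2 1.42.0, other scalings, filters and thresholds, 1 fit over 21 libraries, the replicate number as a block, leaving out each library, and, chosen after seeing the data, leaving out DOX library 1 and vehicle library 2 of the tet-MYCshRNA line together. Counting error is small beside the spread between cultures for all genes but MT1A, MT1F, MT1G and, in 2D cells, MT1M.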

Additional observations from a re-analysis of the deposited data

Results flagged for a closer look

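The effects of MUC1 and of MYC silencing differed for 6 of the 8 genes tested, by the test of the difference over 12 libraries, where 52.9% of all 21585 genes were called. Values are given here as MUC1 minus MYC silencing on the log2 scale. The difference was -2.92 for MT1M, with 3 of 3 DOX libraries below the vehicle libraries on MUC1 silencing and 3 of 3 above on MYC silencing. It was -1.8 for MT1F and -0.93 for MT1X. SLC30A1 had a difference of -0.5, with every DOX library below the vehicle libraries on MUC1 silencing and overlapping groups on MYC silencing. MTF1 had a difference of 0.18, and its call was lost in most alternatives. MT1A had a difference of 3.35, which rests on the library with 507 counts.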

How the results depend on the processing

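The counts of called genes stayed within 1.5 times their main values under the other tools, scalings and filters run, except in the settings named here. Of the single-gene values under alternatives, 917 kept their direction and side of the threshold, 83 lost the call, 22 gained it and 15 changed sign. Requiring an absolute log2 fold change above 1.5 left 4 of 7 calls in 3D vs. 2D cells, 0 of 3 with GO-203, 0 of 7 on MUC1 silencing, 3 of 5 on MYC silencing, 3 of 6 for MUC1 against MYC silencing, 0 of 7 for GO-203 against MUC1 silencing and 3 of 6 for GO-203 against MYC silencing. An absolute fold change above 1.5 left 1 call with GO-203 and 3 on MUC1 silencing, and the fit over all 21 libraries left 1 call with GO-203. These thresholds remove calls by construction.

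Leaving out 1 library at a time gave 7 to 8 calls in 3D vs. 2D cells, 2 to 4 with GO-203, 6 to 7 on MUC1 silencing and 4 to 6 on MYC silencing. The 3 differences of effects had 5 to 7 calls each, and the order of levels had 24 to 33 passing steps (26 with all libraries). The cause of changes of sign was not tested. Over the fits without 1 library, MT1F with GO-203 ran from -0.02 (without 3D library 3) to 0.692 and MT1X from -0.096 to 0.027 (without 3D library 3). On MYC silencing SLC30A1 ran from -0.127 to 0.12, below 0 without DOX library 1, vehicle library 1 or vehicle library 2, and was -0.007 with no low-count filter and -0.144 without both DOX library 1 and vehicle library 2 (the 507-count library for MT1A), a setting added after seeing the data. MT1A ran from -3.442 to 0.371 there, above 0 without vehicle library 2, and was 0.60 without both of those libraries. MT2A ran from -0.097 (without DOX library 2) to 0.457. For GO-203 against MUC1 silencing MT1A ran from -0.268 (without GO-203 library 2) to 0.802 and was -0.146 without 3D library 2. For GO-203 against MYC silencing MTF1 ran from -0.093 to 0.029 (without GO-203 library 2) and was 0.015 scaled by library size alone. MT1F in 3D vs. 2D cells was 1.64 with the tet-MUC1shRNA vehicle cells as the spheres. DESeq2 gave no adjusted p for MT1A on MYC silencing, and no call is counted for it.

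The libraries were treated as unpaired. Deviations of same-numbered libraries had a mean correlation of -0.041, 0.115, 0.033 and -0.198 in the 4 comparisons. Of 6 libraries, 1, 4, 3 and 0 correlated best with their own number. With GO-203 the 3 correlations were all above 0 (0.169, 0.032 and 0.146), so pairing by number is not settled there. With the replicate block, MT1E with GO-203 gained a call (0.16, adjusted p = 0.03191), and MT1A on MYC silencing (-1.66, adjusted p = 0.1696) and MTF1 for MUC1 against MYC silencing (0.18, adjusted p = 0.1442) lost theirs. MT1A lost its call in both differences as well (2.10 and 2.25). The block left 7, 4, 7 and 4 calls in the 4 comparisons and 26 passing steps. Depth limits MT1A and MT1G, which had 29 or fewer counts in every library but 1.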

Other observations

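The library with 507 MT1A counts was library 2 of the tet-MYCshRNA cells with vehicle, the deepest of the 21 libraries with 99751717 counts. Scaled, this was 5.07 CPM, while its 2 replicates had 19 and 7 counts. In the same library the neighbouring gene MT1M was at 3.12 CPM and MT1E at 84.6 CPM, against 2.89 and 2.44 CPM for MT1M and 93.9 and 74.3 CPM for MT1E in the replicates.

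Within library 1 of the tet-MYCshRNA cells with DOX, MT2A (1067 CPM), MT1X (256 CPM), MT1E (107 CPM) and MT1F (1.27 CPM) were the lowest of their group, and SLC30A1 (64.0 CPM) was the highest.

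ENSG00000260823, a gene model without a symbol inside the cluster, rose by 4.81 on the log2 scale in 3D vs. 2D cells and fell by 0.72 on MYC silencing. It starts 2.79 kb from the start of MT2A, on the minus strand.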
